A study of Mus musculus with 4 samples.

Results

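Late-numbered miRNAs are taken here as the mouse miRNA names mmu-miR-N with a number N of 1900 or higher, in any letter, copy or arm, except miR-3065 and miR-3070. The names were picked by their number and by having at least 1 read in any of the 4 libraries, so being listed is part of the choice and no result. They made up 282 of the 816 miRNA names listed (34.6%). The study set basal cells against luminal cells sorted from prostates, the mice being wild-type C57Bl/6 males aged 10 weeks, with 2 libraries of each. Prostates were dissociated with collagenase and trypsin. Basal cells were gated by FACS as Sca-1(+), lin(-) and CD49f(high), and luminal cells as Sca-1(+), lin(-) and CD49f(low), where CD49f is integrin alpha 6. No genotype other than wild type and no treatment entered the comparison, and the labels do not say whether the libraries of a group came from separate mice, and any p-value then reflects the spread among these 4 libraries alone, which may be technical. In bulk samples, fewer cells of a type and less RNA per cell cannot be told apart.

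A miRNA is a short RNA cut from a hairpin precursor by the nucleases Drosha and Dicer, and bases 2 to 8 of the mature strand, the seed, pair with target messengers. Numbers are given in order of registration, so high numbers mark entries found late, mostly by deep sequencing. Many of these hairpins are mirtrons or tailed mirtrons, in which splicing in place of Drosha sets both ends or 1 end of the hairpin, and other entries lie in small nucleolar RNAs or in repeats. In the prostate gland, basal cells line the outside of the epithelium and luminal cells secrete into the duct.

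The 5 late-numbered miRNAs with the highest mean level are shown first, since they hold most of the reads and all of the calls described below. The mature sequences are those of RefSeq for GRCm38.p6, 5′ to 3′, with the seed in capitals.
miR-2137: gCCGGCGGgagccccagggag
miR-6538: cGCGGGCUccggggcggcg
miR-6240: cCAAAGCAucgcgaaggcccacggcg
miR-6239: uAGCGUUGgaucacucggug
miR-7044-5p: gUGUGGUGgugguggcggc
No seed was shared among these 5. Of all listed miRNAs with a sequence, miR-330-3p had the seed of miR-6240, and miR-6351, which had 1 read in luminal replicate 2, had that of miR-6239. miR-6538, with 19 bases, was 94.7% G and C, miR-2137 85.7%, miR-7044-5p 73.7%, miR-6240 69.2% and miR-6239 55%.

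Pairs of values are given with replicate 1 before replicate 2. The libraries held 1855718 and 3278294 miRNA reads in basal cells, and 1583830 and 1501898 in luminal cells. Entries named Cali, which are no miRNA, made up 29.3% and 54.0% of listed reads in basal cells, and 62.1% and 59.4% in luminal cells. The labelled cell types were checked by their miRNAs. miR-205, which marks the basal layer, summed over its 2 arms to 52006 and 80954 RPM, the reads per 1000000 miRNA reads scaled by TMM (trimmed mean of M values), in basal cells, against 6688 and 4609 in luminal cells. The luminal pair miR-148a-3p and miR-375-3p summed to 3100 and 4142 RPM in the basal and to 26338 and 23201 in the luminal libraries.

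Late-numbered miRNAs took a small part of the miRNA reads, and a larger part in luminal than in basal libraries. They had 4025 and 8159 reads in basal cells, against 7688 and 17832 in luminal cells. Their share of miRNA reads was 0.217% (95% exact binomial interval 0.210 to 0.224) and 0.249% (0.244 to 0.254) in the basal libraries, and 0.485% (0.475 to 0.496) and 1.19% (1.17 to 1.20) in the luminal libraries. Intervals here cover counting error only. Basal libraries averaged 0.233% ± 0.0226 and luminal ones 0.836% ± 0.496 (SD, n = 2 each). With the epithelial miR-200c-3p left out of the total, the share was 0.279% and 0.469% in basal cells, against 1.54% and 4.19% in luminal cells. The difference, basal minus luminal, was then -2.49 percentage points in place of -0.603. As a share of all listed reads, Cali entries included, the values were 0.153% and 0.114% (basal) and 0.183% and 0.481% (luminal). With miR-2137 left out of the miRNA reads, they were 0.200% and 0.218% (basal) and 0.374% and 0.751% (luminal). In both of these settings the gap between group means was narrower than -0.603. The groups did not overlap, but the luminal libraries stood further apart from each other than luminal replicate 1 stood from the basal libraries. With 2 libraries against 2, the smallest p an exact permutation test can reach for 1 value is 0.333, and no p is given for the sum over the members.

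Most of the names were rare. In all 4 libraries together, 57 names had a single read, 170 had under 10 reads, and 6 had 1000 or more, and the median was 5 reads, against 87 for the other 534 miRNAs. The libraries listed 129 and 119 late-numbered names in basal cells, and 145 and 101 in luminal cells. Of the 282 names, 165 were listed in 1 library, 59 in 2, 21 in 3 and 37 in all 4, so 13.1% were seen in every library. Of the other miRNAs, 54.5% were seen in every library. There were 92 names listed in basal libraries alone and 99 in luminal libraries alone. A name listed in 1 library falls in 1 group by necessity. Both basal libraries listed 12 of the 92, and both luminal libraries 14 of the 99. The other 534 miRNAs, 103 of them listed in 1 library, were not counted in this way. The most reads of a late-numbered name listed in 1 group alone were 35 for miR-3076-3p, with 18 and 17 reads in basal cells. For luminal cells they were 42 for miR-6347, with 6 and 36 reads. Both were chosen after their values were seen. A count of 0 allows up to 3 reads, which is 0.915 RPM of the unscaled total in the deepest library, basal replicate 2, and 1.89 in luminal replicate 1. Single reads at this depth do not separate the cell types. At the edge of the rule, miR-1900 had 0 and 0 reads in basal cells and 1 and 2 in luminal cells, and miR-1901 had 0 and 1 in basal and 0 and 1 in luminal cells. Just below it, miR-1896 had 0 and 0 reads in basal and 1 and 3 in luminal libraries, and miR-1895 had 0 and 4 in basal and 0 and 15 in luminal libraries.

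**Figure D1:**
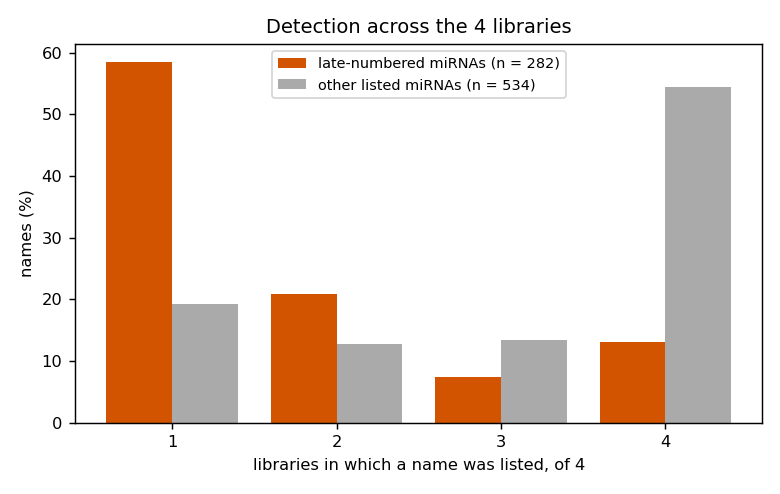
Share of names (y axis, %) listed in 1, 2, 3 or 4 of the libraries (x axis) for the 282 late-numbered miRNAs and the 534 other miRNAs. Most late-numbered names appear in 1 library (165 names) and 13.1% in all 4, against 54.5% of the other miRNAs.

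The reads were concentrated in a few names. miR-2137, miR-6538, miR-6240 and miR-6239 together took 48.3% and 48.2% of the late-numbered reads of basal cells, and 72.5% and 85.8% of those of luminal cells. By number, the 25 names from 6000 to under 6800, among them miR-6538, miR-6240 and miR-6239, stood at 905 and 906 RPM of the unscaled totals in basal cells, against 2457 and 5851 in luminal cells. The 26 names from 1900 to under 3000, led by miR-2137, stood at 299.6 and 429 in the basal and at 1232 and 4510 in the luminal libraries. In both bands the groups were apart. miR-2137 held 9676 of the 10688 reads of its band, and the rest of that band was no higher in luminal libraries. The 57 names from 3000 to under 4000 stood at 376 and 723 RPM in the basal and 476 and 567 in the luminal libraries, and the 25 names from 4000 to under 6000 at 249 and 236 in the basal and 309 and 224 in the luminal libraries, so these groups overlapped. The 136 names from 6800 to under 8000, the largest band by names, stood at 238 and 101.9 in the basal and 348 and 658 in the luminal libraries. miR-7044-5p alone had 1160 of the 2315 reads of this band, and without it the groups would overlap. The 13 names of 8000 and above went the other way, at 101.8 and 92.1 RPM in the basal against 32.8 and 62.6 in the luminal libraries.

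**Figure D2:**
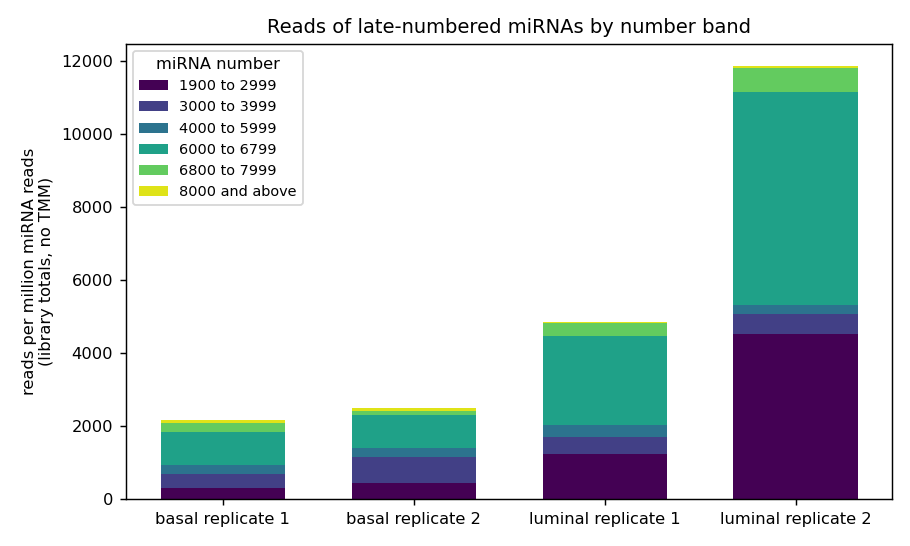
Reads of late-numbered miRNAs per 1000000 miRNA reads of each library (y axis, unscaled totals) stacked by number band, with the basal libraries left of the luminal ones. Bands 1900 to under 3000 and 6000 to under 6800 make up most of the luminal bars, at 1232 and 2457 in luminal replicate 1 and 4510 and 5851 in luminal replicate 2.

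Of the 282 names, 33 passed the filter on low counts and entered the comparison of basal over luminal cells, 29 of them with reads in all 4 libraries, and 249 did not. edgeR's quasi-likelihood test with Benjamini-Hochberg adjustment over all 345 tested miRNAs called 3 of the 33 at an adjusted p under 0.05, all higher in luminal cells, and none higher in basal cells. Over all tested miRNAs it called 4.35%, of which 3.77% were higher in luminal and 0.580% higher in basal cells. At an unadjusted p under 0.05, 7 of the 33 were higher in luminal and 0 in basal cells, beside 9.57% and 6.38% of all 345 tested miRNAs, or 15.9% in either direction. The list was proposed with these calls known, so nothing about late numbers is read from the counts. The median log2 fold change of the 33 was -1.02, beside -0.01 over all 345, and 24 of the 33 lay below 0. Luminal libraries were higher with no overlap between groups for 15 of the 33, and basal libraries for 1, where over all 345 tested miRNAs the shares were 24.3% and 27.2%, or 51.6% in either direction. These values depend on the scaling. The median of all tested miRNAs moved up by 0.317 with upper-quartile factors, 0.569 with library totals alone and 1.99 with scaling to the Cali reads, and in these fits the median of the 33 was -0.65, -0.42 and 0.91, with 2, 1 and 0 of them called. The share of Cali reads was highest in the luminal libraries, and its part in these results was not tested.

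miR-6538, encoded in an intron of the ubiquitin ligase gene Rnf144a, had the largest difference of the 33. It had 130 and 99 reads in basal cells, against 1337 and 4915 in luminal cells. Both luminal libraries lay above both basal libraries, and luminal replicate 2 was the highest. Mean levels were 39.0 ± 13.5 RPM (basal) and 2508 ± 2101 RPM (luminal), with SD and n = 2 each. The log2 fold change was -6.01, standard error (SE) 0.83 (edgeR with Benjamini-Hochberg adjustment, adjusted p = 3.93e-04). Without luminal replicate 2 the log2 fold change was -4.65 (adjusted p = 1.88e-05), and the call ended under scaling to the Cali reads (-3.83, adjusted p = 0.161). The hairpin is at chr12:26414901-26415010, minus strand (GRCm38).

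miR-2137, encoded in an intron of Zfp185 (chrX:72992079-72992144, plus strand), had the most reads of all late-numbered miRNAs. It had 311 and 1002 reads in basal cells, against 1765 and 6598 in luminal cells. The groups did not overlap, and within each group the second library was the higher. Mean levels were 207 ± 129 RPM (basal) and 3356 ± 2837 RPM (luminal), with SD and n = 2 each. The log2 fold change was -4.02, SE 0.78 (edgeR, adjusted p = 0.00849). It was -2.67 without luminal replicate 2 (adjusted p = 0.0216), and the call ended with library totals alone (-3.54, adjusted p = 0.0653) and under scaling to the Cali reads (-2.47, adjusted p = 0.291). The ratio of miR-2137 to miR-6538 reads was 2.39 and 10.1 in basal cells, and 1.32 and 1.34 in luminal cells. The ratio was close to the same in both luminal libraries, whose levels differed, and was unlike in the 2 basal libraries.

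miR-7044-5p, from a hairpin that ends with an intron of Rasgef1a, a gene for a Ras exchange factor (chr6:118085192-118085263, plus strand), was the third call. In another Rasgef1a transcript part of it is coding exon. It had 164 and 45 reads in basal cells, against 341 and 610 in luminal cells. All luminal values lay above all basal values. Mean levels were 37.3 ± 33.8 RPM (basal) and 378 ± 166 RPM (luminal), with SD and n = 2 each. The log2 fold change was -3.34, SE 0.85 (edgeR, adjusted p = 0.0274). It was no longer called once basal replicate 2 was left out (-2.61, adjusted p = 0.303), nor with upper-quartile factors (-2.96, adjusted p = 0.0793), with library totals alone (-2.61, adjusted p = 0.200), with a minimum mean of 10 RPM (-3.38, adjusted p = 0.0690) and under scaling to the Cali reads (-0.87, adjusted p = 0.703). The other arm, miR-7044-3p, had 4 and 0 reads in basal and 0 and 0 in luminal cells. Smooth muscle miR-143-3p and miR-145a-5p went the same way as these 3 miRNAs. The smooth muscle pair summed to 1054 and 1970 RPM in basal and 9473 and 12374 in luminal cells. Neural miR-9-5p did so too, at 1.12 and 7.14 RPM in basal and 258 and 74.0 in luminal cells. The other neural marker, miR-124-3p, overlapped between groups, with 3 and 6 reads in basal and 6 and 0 in luminal cells. Endothelial miR-126a, summed over its 2 arms, went the other way, at 55057 and 34556 RPM in basal and 10579 and 966 in luminal cells. The part of these cell types in the result was not tested.

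miR-6240 and miR-6239 came next in level, and neither passed the test. miR-6240 had 599 and 1861 reads in basal cells, against 1489 and 2098 in luminal cells, or 389 ± 234 RPM (basal) and 1422 ± 400 RPM (luminal; mean ± SD, n = 2 each, log2 fold change -1.87, edgeR adjusted p = 0.127). miR-6239 had 905 and 967 reads in basal and 981 and 1685 in luminal cells, or 313 ± 35.5 RPM (basal) and 1060 ± 438 RPM (luminal; log2 fold change -1.76, edgeR adjusted p = 0.132). On the RPM scale neither miRNA overlapped between groups. Under scaling to the Cali reads, the log2 fold change was -0.27 for miR-6240 and 0.32 for miR-6239. DESeq2 called miR-6240 (adjusted p = 0.0451) and not miR-6239 (0.0548). Mir6240 (chr5:114851948-114852064, plus strand) overlaps no other gene annotated in GENCODE M21. No late-numbered sequence, here or below, was searched for in RNAs that this annotation lacks. Such RNAs as a source of the reads were not tested.

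**Figure D3:**
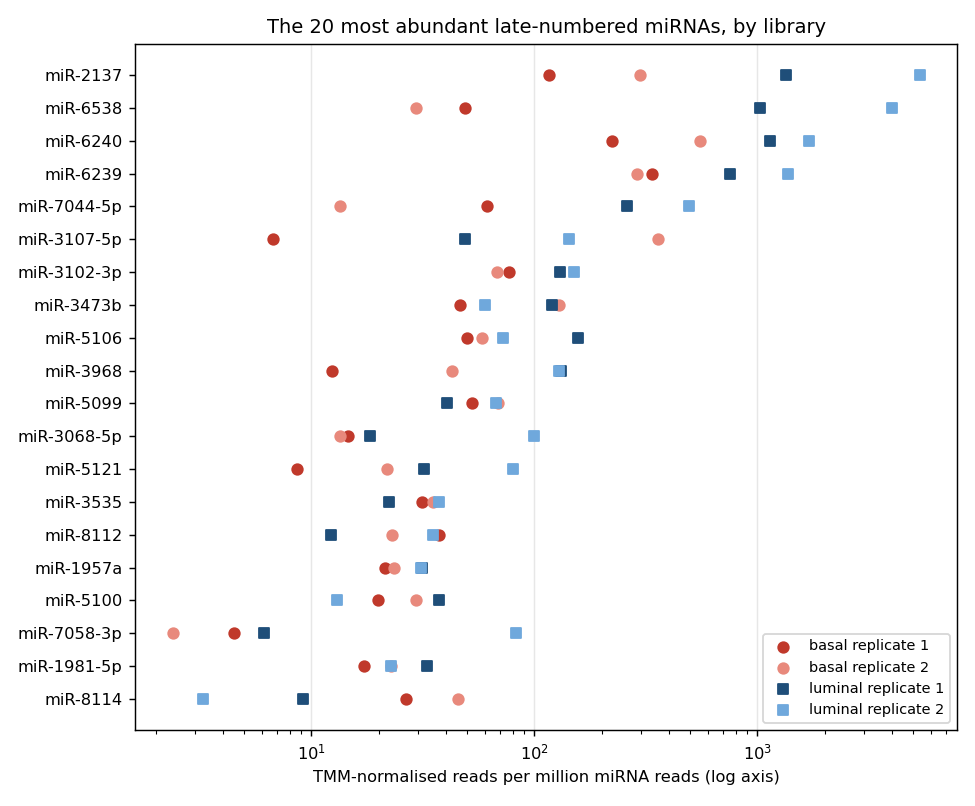
TMM-normalised RPM (x axis, log scale) in each library for the 20 late-numbered miRNAs with the highest mean level. Red circles are basal and blue squares luminal libraries. The luminal squares of miR-2137, miR-6538 and miR-7044-5p lie to the right of the basal circles, with group means of 3356, 2508 and 378 RPM against 207, 39.0 and 37.3, and miR-8114 shows the opposite order.

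The next group in level had 1 basal library apart from the rest in its leading member. miR-3107-5p, which in miRBase has the mature sequence of the erythroid miRNA miR-486-5p, had 18 and 1203 reads in basal cells, against 64 and 176 in luminal cells. The groups overlapped, basal replicate 2 being the highest and basal replicate 1 the lowest. Its log2 fold change was 0.93, SE 1.12 (edgeR adjusted p = 0.712), and it was -3.81 without basal replicate 2 (adjusted p = 0.311). No library listed miR-486-5p. The erythroid miR-451a and both arms of miR-144 summed to 171 and 3046 RPM in basal cells, and 207 and 646 in luminal cells, with basal replicate 2 again the highest and basal replicate 1 the lowest. Both groups were sorted as lin(-), a gate meant to remove blood-lineage cells, whose antibodies the labels do not list. The part of red cells in these values was not tested.

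Some of the abundant names lie in small nucleolar RNAs, which guide modification of ribosomal RNA, or in repeats. miR-3535 lies in a snoRNA gene within nucleolin (Ncl), a nucleolar protein gene, and had 84 and 118 reads in basal and 29 and 46 in luminal cells. Its RPM overlapped between groups, with a log2 fold change of 0.16 (edgeR adjusted p = 0.980). miR-5121 lies in the snoRNA Snord33 within the ribosomal protein gene Rpl13a, and had 23 and 73 reads in basal and 42 and 99 in luminal cells (log2 fold change -1.89, edgeR adjusted p = 0.388). Both arms of miR-3068 come from a gene in an intron of the demethylase gene Alkbh1 that GENCODE types as a snoRNA. miR-3068-5p had 39 and 45 reads in basal and 24 and 122 in luminal cells (log2 fold change -2.07, edgeR adjusted p = 0.381). Leaving out luminal replicate 1 made it a call (-2.76, adjusted p = 0.0399). miR-3068-3p had 29 and 16 reads in basal and 11 and 47 in luminal cells (log2 fold change -1.57). In both arms luminal replicate 2 was the highest. These 4 are shown, with the seed in capitals, as the most abundant of the names in snoRNAs.
miR-3535: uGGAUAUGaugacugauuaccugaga
miR-5121: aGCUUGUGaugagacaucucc
miR-3068-5p: uUGGAGUUcaugcaaguucuaacc
miR-3068-3p: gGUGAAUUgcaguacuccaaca
miR-3473b is a repeat-like name. Its whole sequence occurs in the transcripts of 343 other genes, so its reads cannot be placed at 1 locus. It had 124 and 433 reads in basal and 156 and 74 in luminal cells (log2 fold change -0.03, edgeR adjusted p = 0.983).

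None of the other abundant names passed the test. miR-3968 had 33 and 144 reads in basal and 172 and 158 in luminal cells (log2 fold change -2.23, edgeR adjusted p = 0.213). miR-3102-3p had 206 and 229 reads in basal and 170 and 186 in luminal cells (log2 fold change -0.95, edgeR adjusted p = 0.570). miR-5106 had 133 and 196 reads in basal and 205 and 89 in luminal cells (-1.08, edgeR adjusted p = 0.540). In each of these 3 both luminal libraries lay above both basal libraries in RPM. miR-1957a (log2 fold change -0.47) and miR-1981-5p (-0.48) had log2 fold changes smaller than their standard errors of 1.09 and 1.14, although neither overlapped between groups. The direction depended on the scaling. Under scaling to the Cali reads the log2 fold change was 1.12 for miR-3102-3p, 0.91 for miR-5106, 1.51 for miR-1957a and 1.43 for miR-1981-5p, and with library totals alone it was 0.10 for miR-1957a and 0.066 for miR-1981-5p. miR-5099, miR-8112 and miR-5100 overlapped between groups, with log2 fold changes of 0.17, 0.35 and -0.04. miR-8114 was the 1 tested member with both basal libraries above both luminal libraries. It overlaps the 5' UTR of Glul, the gene for glutamine synthetase, and had 71 and 152 reads in basal against 12 and 4 in luminal cells, or 35.9 ± 13.2 RPM (basal) and 6.21 ± 4.19 RPM (luminal; log2 fold change 2.52, SE 1.29, edgeR adjusted p = 0.358).

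Many of the hairpins, mostly in 1 band of numbers, lie at intron ends. RefSeq gave a mature sequence for 237 of the 282 names, which hold 93.0% of their reads, and a hairpin position for 222 names from 197 hairpins. Of these hairpins, 92 (46.7%) had 1 or both ends within 10 bases of the ends of an annotated intron on the same strand (GENCODE M21), against 5 of 286 (1.75%) of the hairpins of the other miRNAs. Both ends lay there for 12 and 1 end for 80. Numbers from 6800 to under 8000 held 76 of the 92, out of 91 hairpins in that band. None of the 17 hairpins from 6000 to under 6800 and none of the 12 of 8000 and above lay there, and the hairpins of miR-2137, miR-6538 and miR-6240 did not. Hairpins wholly in introns were 51.8% of the late-numbered and 36.7% of the other hairpins. The Dlk1-Dio3 interval on chromosome 12 held 2 late-numbered hairpins, those of miR-3072 and miR-3544, with 8 and 3 reads in all. The hairpins of miR-3074, with 2 reads of miR-3074-5p and 2 of miR-3074-1-3p, lie opposite those of miR-24. Position alone does not show that a hairpin is cut as a mirtron.

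**Figure D4:**
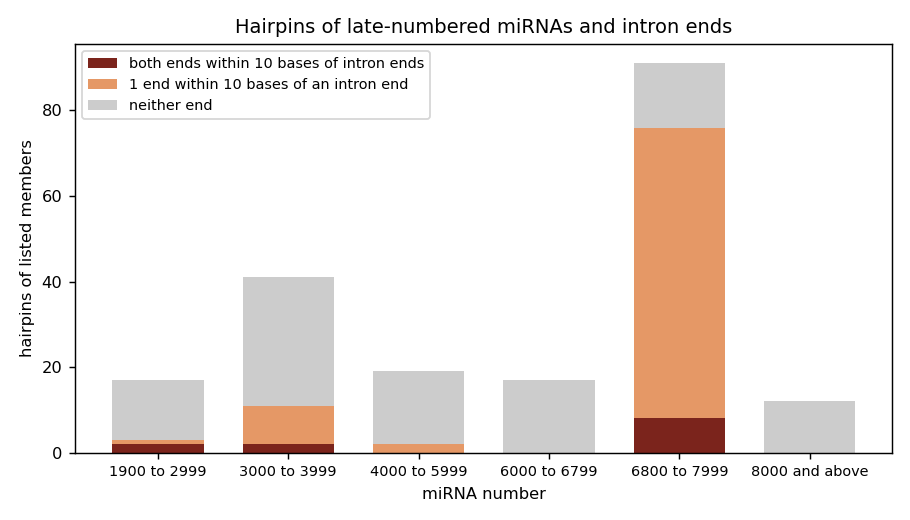
Number of hairpins with a listed late-numbered miRNA (y axis) in each number band (x axis), split by how many ends of the hairpin lie within 10 bases of intron ends. The band 6800 to under 8000 holds 76 of the 92 hairpins with 1 or both ends there.

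Introns end in AG after a stretch rich in C and U, so a 3p arm that ends with its intron carries these letters by its position, and the shares given next are a description of the chosen arms. Of 62 mature 3p arms from hairpins near intron ends, 51 (82.3%) ended in AG, and of 28 3p arms from the other late-numbered hairpins 4 (14.3%). Among the 224 3p arms of the other miRNAs with a sequence the share was 7.59%. The median share of C and U was 71.4% in the 3p arms near intron ends, and 54.5% in the 3p arms of the other miRNAs. The 5p arms near intron ends had a median of 43.5% G, against 26.1% in the 5p arms of the other miRNAs. miR-3102-3p, with 791 reads, was among the names without a hairpin position and was not classed. The arms shown are the 5 with the most reads among 3p arms classed as near intron ends and with a RefSeq sequence. They were chosen after their values were seen, and a final AG is in capitals.
miR-7058-3p: cucguuccuuccuuucuuccAG
miR-1981-3p: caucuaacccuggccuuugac
miR-3076-3p: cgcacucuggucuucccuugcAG
miR-7069-3p: ccugcccugccaaccccuaca
miR-6988-3p: ugaccucuguaucuccugccAG
The 1981 and 7069 arms lack the final AG. An end that fits the letters of an intron end is a description and no proof of how the RNA was made.

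Names near intron ends were many and had few reads. The 113 of them had 549 and 477 reads in basal cells, against 582 and 1119 in luminal cells, or 296 and 145.5 RPM of the unscaled totals in basal and 367 and 745 in luminal libraries. Of the 113, 71 were listed in 1 library and 8 in all 4. miR-7044-5p alone had 1160 of their 2727 reads, at 164 and 45 in basal and 341 and 610 in luminal cells. Without it the groups would overlap in RPM of the unscaled totals. Mir7058 spans the whole 75-base intron of Lat (chr7:126367971-126368045, minus strand), the gene for an adaptor of the T cell receptor. miR-7058-3p had 12 and 8 reads in basal and 8 and 102 in luminal cells. Only luminal replicate 2 was high, and the log2 fold change of -3.68 (SE 1.43) did not pass (edgeR adjusted p = 0.183). It passed without luminal replicate 1 (-4.51, adjusted p = 0.00120) and in DESeq2 (adjusted p = 0.0497). The other arm, miR-7058-5p, had 0 and 0 reads in basal and 1 and 3 in luminal cells. Leukocyte miRNAs were uneven too. miR-223-3p had 19 and 213 reads in basal and 38 and 409 in luminal cells, and miR-150-5p 9190 and 21126 in basal and 3701 and 1452 in luminal cells. miR-142-3p, listed under its older name and added after its values were seen, had 74 and 164 reads in basal and 63 and 256 in luminal cells. The other arm, miR-142-5p, was listed too and its values are not given here. In RPM, luminal replicate 2 was the highest library for miR-223-3p and miR-142-3p, as for miR-7058-3p, and the lowest for miR-150-5p. The lin(-) gate is meant to remove leukocytes as well, and their part was not tested. Mir1981 spans an 82-base intron of Marc2 (chr1:184822407-184822488, minus strand). miR-1981-5p had 46 and 76 reads in basal and 43 and 28 in luminal cells, and miR-1981-3p had 9 and 36 in basal and 17 and 16 in luminal cells. Reads of both arms were listed for 35 of the 165 late-numbered hairpin names that carry an arm, and miR-1981 and miR-3068 were the only ones with both arms in all 4 libraries.

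Late-numbered miRNAs were richer in G and C than the other miRNAs. The median of the 237 mature sequences was 59.1% G and C (quartiles 52.2% and 65%), against 47.6% (40.9% and 56.0%) in 442 other miRNAs. More than 70% G and C was seen in 24 of the 237 (10.1%) and 9 of the 442 (2.04%), and under 20 bases in 12 (5.06%) and 3 (0.679%). Weighted by reads, the late-numbered sequences had 63.4% and 65.7% G and C in basal cells, against 74.1% and 80.3% in luminal cells. The other miRNAs had 45.9% and 45.4% in basal and 44.0% and 43.8% in luminal cells. Of the tested members, 4 had more than 70% G and C, and all 4 had negative log2 fold changes. These are the 3 calls and miR-5126, which is 100% G and C and was chosen after its values were seen. miR-5126 had 12 and 26 reads in basal and 80 and 7 in luminal cells, so its groups overlapped (log2 fold change -2.44, edgeR adjusted p = 0.388). The 2 other tested miRNAs above 70%, miR-1247-5p and miR-339-3p, had log2 fold changes of 2.43 and 2.84. Across the 29 tested members with a sequence, Spearman's rho of log2 fold change with G and C was -0.15 and Pearson's r -0.43, and across the 267 other tested miRNAs 0.13 and 0.12. These describe miRNAs of the same 4 libraries, which are not independent.

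**Figure D5:**
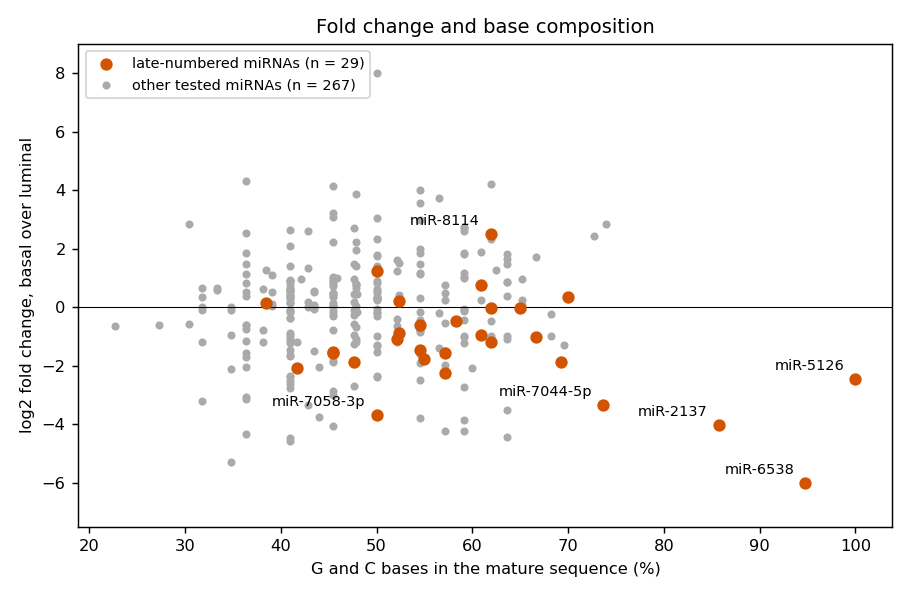
Log2 fold change of basal over luminal (y axis) against the share of G and C bases in the mature sequence (x axis, %) for the 29 tested late-numbered miRNAs with a sequence and 267 other tested miRNAs. The 3 calls and miR-5126 lie at more than 70% G and C and below 0, while the 2 other miRNAs above 70% lie above 0.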

How the data were processed

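Small RNAs from 4 libraries of sorted prostate cells were analysed. The authors deposited 1 table with raw read counts per miRNA name and library. Its file name points to BLAST. For search settings, miRNA release, trimming and reads with several matches the labels hold no statement, so names with similar sequence may share reads. A name not listed in a library was taken as 0. The unnamed sum under each list and 4 names that are no miRNA were left out of totals and tests.

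Counts were scaled by TMM and tested with edgeR 4.0.16 in R 4.3.3 (filterByExpr with a minimum of 10 reads and a total of 15, quasi-likelihood test of cell type, 2-sided, Benjamini-Hochberg adjustment over 345 miRNAs, threshold 0.05). The fit used all 4 libraries, and the steps were tested on simulated data. Alternatives used DESeq2 1.42.0, other scalings and filters, a replicate block and each library left out. Standard errors are the log2 fold change divided by the root of F. Named members were those called, the 20 with the highest mean RPM, and their other arms where the hairpin name matched. miR-3102-5p.2-5p and miR-3102-3p.2-3p did not match miR-3102-3p in this way. They were left out of the named members and counted as separate hairpin names. The members, lists and rules were chosen with earlier results of these data known. Sequences come from RefSeq (GRCm38.p6), and genes from GENCODE M21. The files name no build, so positions are those of the reference for each name. Position classes and base composition were computed with Python 3.11.15.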

Additional observations from a re-analysis of the deposited data

How the results depend on the processing

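Calls over all miRNAs, 15 in edgeR with TMM, numbered 2 with library totals alone, 3 under scaling to the Cali reads, 5 with a minimum mean of 10 RPM and 33 in DESeq2, and 9 to 61 with each library left out. The late-numbered calls, 3, became 1 with library totals, 0 with Cali scaling, 5 in DESeq2, and 2 to 9 with each library left out. The 9 came without luminal replicate 1, where luminal replicate 2 alone stands for its group and is assumed to vary like the others. The late-numbered median log2 fold change was -0.65 with upper-quartile factors, -0.42 with library totals, 0.91 with Cali scaling, and -1.62 to -0.38 with each library left out. The cause was not tested. The difference in share of miRNA reads, basal minus luminal, was -0.603 percentage points, -2.49 with miR-200c-3p left out of the total, and -0.954 to -0.253 with each library left out. Group means lay closer as a share of all listed reads, at 0.134% (basal) and 0.332% (luminal). The same held with miR-2137 left out, at 0.209% (basal) and 0.563% (luminal). The difference in names listed, 1, was -7.72 at equal depth, and -21 to 23 with each library left out. Names with at least 3 reads averaged 93 in basal and 74 in luminal libraries, and those with at least 10 reads 52 and 41.5.

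Replicate numbers are shared between groups, but the labels do not say that they pair samples, and there are 2 pairs. Same-numbered deviations correlated at 0.15 over 345 miRNAs. With the replicate block there were 23 calls over all miRNAs and 4 among the late-numbered, miR-6240 being added (adjusted p = 0.0397), and the log2 fold changes of miR-3107-5p and miR-5100 were -0.69 and 0.12.

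None of the other names that changed sign was called. With upper-quartile factors miR-3473b was 0.21 and miR-5100 0.25. With library totals miR-3473b was 0.43, miR-1957a 0.10, miR-5100 0.50 and miR-1981-5p 0.066. With Cali scaling miR-6239 was 0.32, miR-3102-3p 1.12, miR-3473b 1.55, miR-5106 0.91, miR-1957a 1.51, miR-5100 1.85, miR-1981-5p 1.43, miR-3068-3p 0.68 and miR-1981-3p 0.60. Without a filter miR-3473b was 0.094 and miR-5100 0.11. With each library left out, miR-3107-5p ranged from -3.81 to 1.92, miR-3473b from -0.94 to 0.58, miR-5099 from -0.10 to 0.62, miR-3535 from -0.11 to 0.63, miR-8112 from -0.14 to 1.35 and miR-5100 from -0.56 to 0.97. Of 285 values of named members under alternatives, 243 kept direction and side of the threshold. Depth limits the 249 names below the filter, which entered no test.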
